A study of Mus musculus with 8 samples.

Results

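Of the 32390 rows in the count table, 8 were the genes of the peroxisome proliferator-activated receptors (*Ppara*, *Ppard* and *Pparg*), of the retinoid X receptors with which they pair (*Rxra*, *Rxrb* and *Rxrg*), and of the uncoupling proteins *Ucp2* and *Ucp3*. They were chosen by gene symbol, each symbol stood for 1 row, and all 8 were among the 12725 rows with enough counts to be tested. Bulk RNA-seq of poly(A) RNA was done on gastrocnemius muscle of 4 control mice (*Nox4* fl/fl) and of 4 NOX4-deficient mice (*Mck*-Cre;*Nox4* fl/fl). All 8 mice were C57BL/6 males fed the standard chow, 21 months old by the sample labels, and handled in batch 1. Both genotypes carried the floxed *Nox4* alleles, so that the groups differed in the Cre transgene. The *Mck* promoter drives Cre in muscle fibers, and less so in heart, so that the vessels, fat, nerve and immune cells within the gastrocnemius are not its targets. Recombination in these cells was not measured here. The receptors and their partners are set beside the uncoupling-protein genes, which PPARs are known to regulate.

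PPARs are nuclear receptors that are activated by fatty acids and their derivatives. Each binds DNA as a heterodimer with an RXR, whose own ligands include a form of retinoic acid, at a direct repeat of the hexamer AGGTCA with a single base between the copies, and turns on genes of fatty acid uptake, storage and oxidation. UCP2 and UCP3 are carriers of the inner mitochondrial membrane. UCP3 is found mainly in skeletal muscle and brown fat, and its gene responds to fatty acids and fasting.

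The libraries held between 16350548 and 19804661 counts on genes. Levels are given as CPM, the counts of a gene relative to a library size that was scaled by the TMM method and set to 1e+06, and the error after ± is the SD of the 4 mice of a genotype (n = 4). Differences are log2 fold changes of NOX4-deficient over control muscle. Adjusted p-values come from the quasi-likelihood test of edgeR, with the Benjamini-Hochberg adjustment over the 12725 rows tested. Genes with an adjusted p under 0.05 and a log2 fold change over 0.5 in size were called. *Nox4* itself, the deleted gene, averaged 3.27 ± 1.42 CPM in control mice and 2.07 ± 0.220 CPM in NOX4-deficient mice, and its log2 fold change of -0.65 was not called (edgeR adjusted p = 0.207). With a library left out the log2 fold change of *Nox4* ranged from -0.82 to -0.36. The skeletal muscle markers were abundant in every library, with summed levels of 125007 to 160352 CPM, and of these 8 genes edgeR called 0, with 0 at an unadjusted p under 0.05 and 0 called by DESeq2 or pydeseq2.

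One of the 8 genes was called, *Ppard*, which was lower in NOX4-deficient muscle, against 6.16% of all rows tested that were called in either direction and 3.48% that were called lower. *Rxrg* was higher with an adjusted p under 0.05 but below the minimum fold change. *Rxra* was higher and *Rxrb* lower in all 4 NOX4-deficient libraries than in any control library, without passing the adjusted threshold. *Ucp3* averaged lower in NOX4-deficient muscle, with 1 NOX4-deficient mouse within the control range, and was not called.

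**Figure D1:**
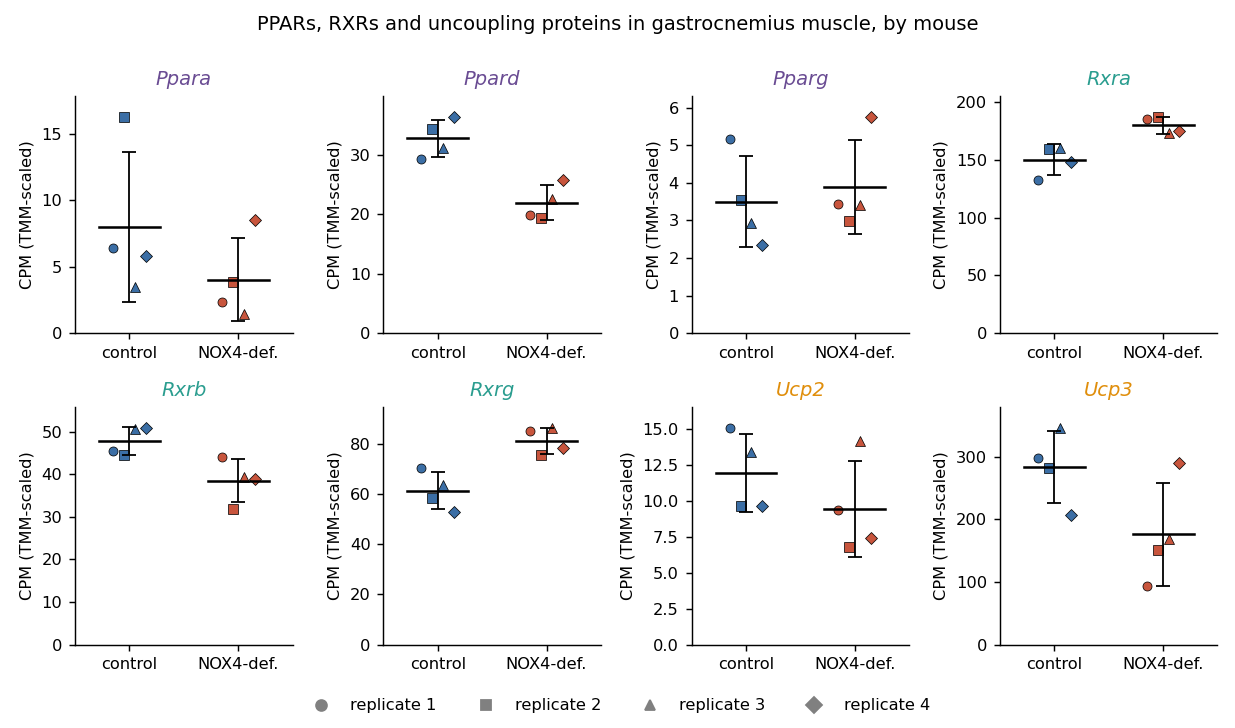
CPM (y axis, TMM-scaled, from 0) of the 8 genes in the 4 control (blue) and 4 NOX4-deficient (red) mice, with a marker shape for each replicate number, a line at the mean and an error bar of 1 SD; gene names are coloured by role. The groups of *Ppard*, *Rxra*, *Rxrb* and *Rxrg* did not overlap, and those of *Ppara*, *Pparg*, *Ucp2* and *Ucp3* did.

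*Ppard*, on chromosome 17, encodes PPARδ, the main PPAR of skeletal muscle and a regulator of oxidative metabolism there. Control replicates 1 to 4 had 29.4, 34.3, 31.1 and 36.3 CPM of *Ppard*, and NOX4-deficient replicates 1 to 4 had 19.9, 19.5, 22.5 and 25.9 CPM. The highest NOX4-deficient library lay below the lowest control library. *Ppard* fell from 32.8 ± 3.14 to 21.9 ± 2.95 CPM, which was 1.495-fold. On the log2 scale the difference was -0.58 (standard error 0.12, 95% interval -0.85 to -0.31, edgeR adjusted p = 0.0153). With any library left out the log2 fold change of *Ppard* stayed between -0.65 and -0.52, and the edgeR adjusted p between 0.0132 and 0.0462.

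*Ppara*, on chromosome 15, encodes PPARα, which drives fatty acid oxidation in liver, heart and oxidative muscle. The 4 control libraries had 6.41, 16.3, 3.48 and 5.82 CPM of *Ppara*, and the 4 NOX4-deficient libraries 2.35, 3.89, 1.42 and 8.50 CPM. Control 2 was the highest of all 8, NOX4-deficient 4 came next, and the groups overlapped. Its difference was -0.99 on the log2 scale with a standard error of 0.61, and the 95% interval ran from -2.38 to 0.39 (edgeR adjusted p = 0.377). The SD came to 70.7% of the mean in control and 77.8% in NOX4-deficient muscle, against 9.58% and 13.5% for *Ppard*. Without control 2 the log2 fold change of *Ppara* was -0.38, and without NOX4-deficient 4 it was -1.63, neither of them past the threshold.

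*Pparg*, on chromosome 6, encodes PPARγ, the regulator of fat cell formation. Its level was low, at 5.15, 3.55, 2.94 and 2.34 CPM in control and 3.43, 2.98, 3.42 and 5.75 CPM in NOX4-deficient libraries. The groups overlapped over nearly their whole range, and NOX4-deficient 4 was the highest of the 8. *Pparg* differed by 0.16 on the log2 scale, with a 95% interval of -0.44 to 0.75 (standard error 0.28, edgeR adjusted p = 0.783), and the sign turned without NOX4-deficient 4 (-0.074).

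The RXR genes differed in opposite directions. *Rxrg*, on chromosome 1, encodes RXRγ, the isotype that is most restricted to muscle and brain. *Rxrg* had 70.1, 58.5, 63.5 and 52.9 CPM in control libraries and 85.1, 75.4, 86.0 and 78.3 CPM in NOX4-deficient libraries. Every NOX4-deficient library lay above every control library. *Rxrg* rose from 61.2 ± 7.33 to 81.2 ± 5.19 CPM, by 0.41 on the log2 scale (standard error 0.11, 95% interval 0.18 to 0.64, edgeR adjusted p = 0.0366), which is 1.33-fold and below the minimum set for a call. Of all rows tested, 7.75% had an adjusted p under 0.05 without the minimum fold change. With 1 library left out the difference of *Rxrg* ranged from 0.34 to 0.48 on the log2 scale and the edgeR adjusted p from 0.0349 to 0.102. Leaving out control 2, 3 or 4 (0.38, 0.44 and 0.34) or NOX4-deficient 1, 3 or 4 (0.40, 0.39 and 0.44) put the adjusted p above 0.05.

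*Rxra*, on chromosome 2, encodes RXRα, which is expressed in most tissues. Control libraries had 132, 160, 160 and 148 CPM of *Rxra*, and NOX4-deficient libraries 185, 187, 173 and 174 CPM. The groups did not overlap, and the gap between the highest control and the lowest NOX4-deficient library was 160 to 173 CPM. *Rxra* differed by 0.26 on the log2 scale (standard error 0.096, 95% interval 0.053 to 0.47), with an edgeR adjusted p of 0.122.

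*Rxrb*, on chromosome 17, encodes RXRβ, which is also widely expressed. Its level was 45.5, 44.5, 50.6 and 50.8 CPM in control libraries and 44.0, 31.8, 39.3 and 39.0 CPM in NOX4-deficient libraries. The groups were separated narrowly, by 44.5 and 44.0 CPM at their nearest. *Rxrb* differed by -0.31 on the log2 scale (standard error 0.11, 95% interval -0.56 to -0.065, edgeR adjusted p = 0.121). Groups that did not overlap were seen in 4 of the 8 genes, 2 lower and 2 higher, and in 16.2% of all rows tested.

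**Figure D2:**
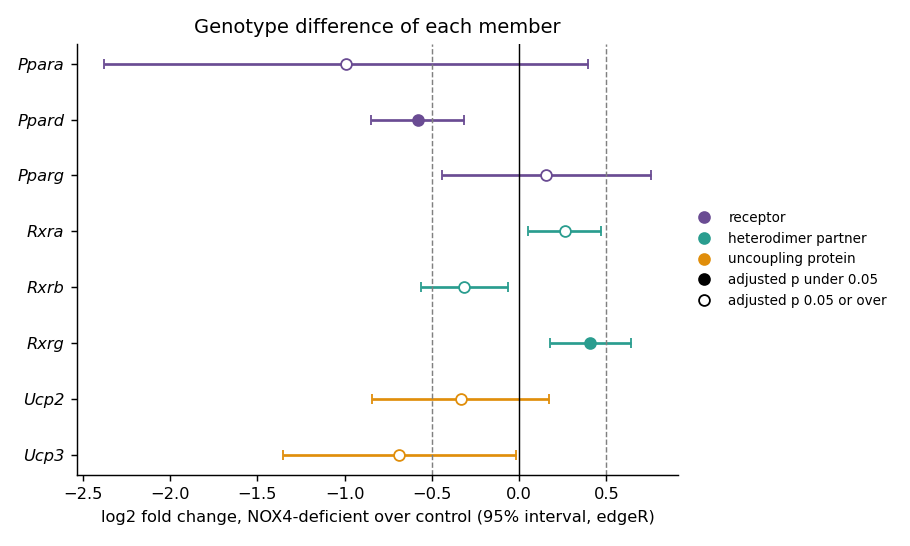
Log2 fold change of NOX4-deficient over control muscle (x axis) for the 8 genes (y axis), with 95% intervals from edgeR; dashed lines mark the minimum fold change of 0.5, colours mark the role and filled points an adjusted p under 0.05. *Ppard* (-0.58) and *Rxrg* (0.41) are filled, the interval of *Ucp3* (-1.36 to -0.018) lies just below 0 and that of *Ppara* is the widest.

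To compare levels between genes, CPM was divided by the length of the exons in kilobases (GENCODE M21, GRCm38; the counts were made on GRCm39, so that these levels are approximate). In control muscle *Ucp3* was the most abundant of the 8 at 90.3 ± 18.2 CPM per kilobase, followed by *Rxra* at 27.5 ± 2.40 and *Rxrg* at 26.7 ± 3.19, which did not differ beyond their spread. *Rxrb* followed at 12.05 ± 0.836 and *Ppard* at 4.36 ± 0.418 CPM per kilobase. *Ppara* (2.08 ± 1.47), *Ucp2* (1.71 ± 0.389) and *Pparg* (1.18 ± 0.410) closed the order with ranges that overlapped. In NOX4-deficient muscle *Ucp3* was still first on average, at 56.1 ± 26.4 CPM per kilobase, but its lowest library (29.9) lay below the lowest library of *Rxrg* (32.8) and of *Rxra* (31.6). On this scale the summed RXR level was 63.0 to 69.7 in control and 75.0 to 82.1 CPM per kilobase in NOX4-deficient libraries. The summed PPAR level was 6.04 to 10.01 in control and 4.41 to 7.60 CPM per kilobase in NOX4-deficient libraries, so that the RXR genes together exceeded the PPAR genes in every library.

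The makeup of the RXR pool differed in 1 isotype. *Rxrb* took 18.2% ± 1.49 of the summed RXR level in control and 12.4% ± 1.23 in NOX4-deficient muscle, with ranges of 16.98% to 20.3% and 10.7% to 13.5% that did not overlap. The shares of *Rxra* (41.5% ± 3.44 and 42.3% ± 2.37) and *Rxrg* (40.2% ± 4.12 and 45.3% ± 1.53) overlapped. *Ppard* took 58.8% ± 11.2 of the summed PPAR level in control and 56.9% ± 8.81 in NOX4-deficient muscle, also with overlap. These shares rest on the same libraries as the fold changes and were not tested.

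*Ucp3* and *Ucp2* lie next to each other on chromosome 7, on the same strand, with 0 protein-coding genes between them. *Ucp3* had 298, 282, 345 and 207 CPM in control libraries and 93.7, 151, 168 and 290.2 CPM in NOX4-deficient libraries. NOX4-deficient replicates 1, 2 and 3 lay below every control library, and NOX4-deficient 4 lay above controls 2 and 4. *Ucp3* averaged 283 ± 57.2 CPM in control mice and 176 ± 82.6 CPM in NOX4-deficient mice. The difference on the log2 scale was -0.69 (standard error 0.30, 95% interval -1.36 to -0.018), and the edgeR p of 0.0452 became 0.205 after adjustment. Without NOX4-deficient 4 the log2 fold change was -1.02 (edgeR adjusted p = 0.0208), which passed both thresholds, and with each of the other libraries left out *Ucp3* was not called.

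*Ucp2*, which is expressed in many tissues and strongly in immune cells, had 15.04, 9.67, 13.4 and 9.62 CPM in control and 9.38, 6.78, 14.2 and 7.39 CPM in NOX4-deficient libraries. NOX4-deficient 3 lay among the higher control libraries and the other 3 NOX4-deficient libraries lay below the control range. *Ucp2* differed by -0.34 on the log2 scale (standard error 0.23, 95% interval -0.84 to 0.17, edgeR adjusted p = 0.431). With a library left out the difference ranged from -0.59 to -0.20, with edgeR adjusted p-values from 0.122 to 0.674. In this unstranded library 4.36% of the exon length of *Ucp2* overlaps *Dnajb13* on the opposite strand, whose reads cannot be told apart there. *Ucp1*, the uncoupling protein of brown fat, had 0 counts in all 8 libraries, which allows a level of up to 0.152 to 0.180 CPM per library, for counting error only.

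The 13 promoters that RefSeq gives for the 8 genes (GRCm38.p6, 250 bases before to 50 after each start) were searched on both strands for AGGTCANAGGTCA, the direct repeat to which PPAR and RXR bind, with up to 2 mismatches in its 12 fixed letters. Of all 32851 mouse promoters 3.86% held such a match. Among the members, *Ucp3* and the second of 2 promoters of *Rxra* held 1 match each. They are printed from 5′ to 3′, with the matched letters in capitals, because *Ucp3* is the target gene measured here and *Rxra* a partner that binds the repeat with PPARs.
Ucp3, chr7:100472741-100473040 (+): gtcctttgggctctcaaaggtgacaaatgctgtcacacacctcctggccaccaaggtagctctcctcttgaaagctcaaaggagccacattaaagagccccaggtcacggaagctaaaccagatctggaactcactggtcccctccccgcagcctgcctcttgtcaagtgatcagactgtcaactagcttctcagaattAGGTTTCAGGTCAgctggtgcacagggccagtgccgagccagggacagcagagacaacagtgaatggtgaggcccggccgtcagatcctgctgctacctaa
Rxra, chr2:27709042-27709341 (+): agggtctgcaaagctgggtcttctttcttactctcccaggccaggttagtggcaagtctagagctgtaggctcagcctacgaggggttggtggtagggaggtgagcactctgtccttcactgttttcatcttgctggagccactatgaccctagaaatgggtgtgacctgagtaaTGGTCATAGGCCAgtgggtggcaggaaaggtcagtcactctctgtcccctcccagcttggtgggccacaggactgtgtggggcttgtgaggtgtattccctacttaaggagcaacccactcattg
In *Ucp3* the match begins 51 bases before the start and in *Rxra* 75 bases before it, each with 2 mismatches. A match in these letters is a description and does not show that a receptor was bound there. The *Ppara*, *Ppard*, *Pparg*, *Rxrb*, *Rxrg* and *Ucp2* promoters held no match in this window. Among PPAR target genes 6 of 41 promoters (14.63%) held a match, those of *Cat*, *Cd36*, *Plin2*, *Slc25a20* and *Aqp7*.

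For the receptors against the uncoupling proteins, 2 of 3 PPAR genes and both *Ucp* genes had a negative log2 fold change, with *Ppard* the only one called. Per mouse the ratio of *Ucp3* to *Ppard* CPM was 10.1, 8.22, 11.1 and 5.70 in control and 4.72, 7.76, 7.47 and 11.2 in NOX4-deficient libraries, and the groups overlapped. *Ppard* was lower in all 4 NOX4-deficient mice, whereas *Ucp3* was below the control range in 3 of them. Over the 8 libraries the deviations of *Ucp3* from its genotype means correlated with those of *Pparg* at 0.62, *Ppard* at 0.45 and *Ppara* at 0.40. The deviations of *Ucp2* correlated with those of *Pparg* at 0.16, *Ppard* at -0.28 and *Ppara* at -0.72. Correlations of deviations are across 8 libraries that share their scaling, and they are given as descriptions.

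Libraries differed in slow and oxidative fiber markers, and the deviations of the PPAR genes and *Ucp3* from their genotype means went with those of the markers. Not every library followed: control 2 had the most of these markers among the controls, but its *Ucp3* (282 CPM) lay below that of controls 1 (298) and 3 (345). The 10 markers, among them *Myh7* (slow myosin) and *Myh2* (oxidative fast myosin), summed to 1032 to 2008 CPM in control and 1199 to 2848 CPM in NOX4-deficient libraries. NOX4-deficient 4 was the highest of the 8 and control 2 the next. *Myh7* alone stood at 184 CPM in NOX4-deficient 4, against 17.6 to 76.3 CPM in the other 7 libraries. Of the 10 markers 9 had a positive log2 fold change, and *Casq2*, the slow isoform of calsequestrin, was called higher (1.02, edgeR adjusted p = 0.0220). The call of *Casq2* was lost in 4 of 19 alternatives, among them without control 3 (0.94) or control 4 (0.90), with edgeR adjusted p-values up to 0.0733. Its lowest log2 fold change over the alternatives was 0.68. The deviations of the mean marker level correlated with those of *Ucp3* at 0.77, *Ppara* at 0.76, *Pparg* at 0.68 and *Ppard* at 0.62, over 8 libraries, and with those of *Ucp2* and the RXR genes between -0.22 and -0.036. With the mean of these markers as a further term in the edgeR fit, which was added after the data were seen, *Ucp3* was called lower (log2 fold change -1.16, adjusted p = 0.0236), as were *Ppara* (-1.70, adjusted p = 0.0353) and *Ppard*. In whole muscle, fewer fibers of a type and less RNA per fiber cannot be told apart.

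**Figure D3:**
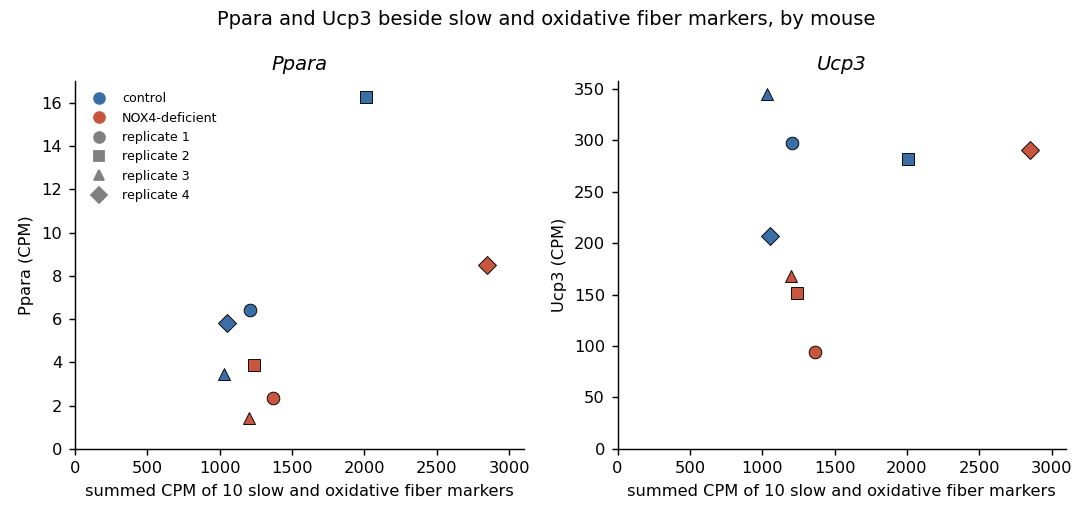
CPM of *Ppara* (left) and *Ucp3* (right) on the y axes against the summed CPM of 10 slow and oxidative fiber markers on the x axis, a point per mouse, with control in blue, NOX4-deficient in red and a marker shape for each replicate number. NOX4-deficient 4 (2848 CPM of markers) and control 2 (2008 CPM) lie to the right and have the highest *Ppara*, and NOX4-deficient 4 lies within the control range of *Ucp3*.

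**Figure D4:**
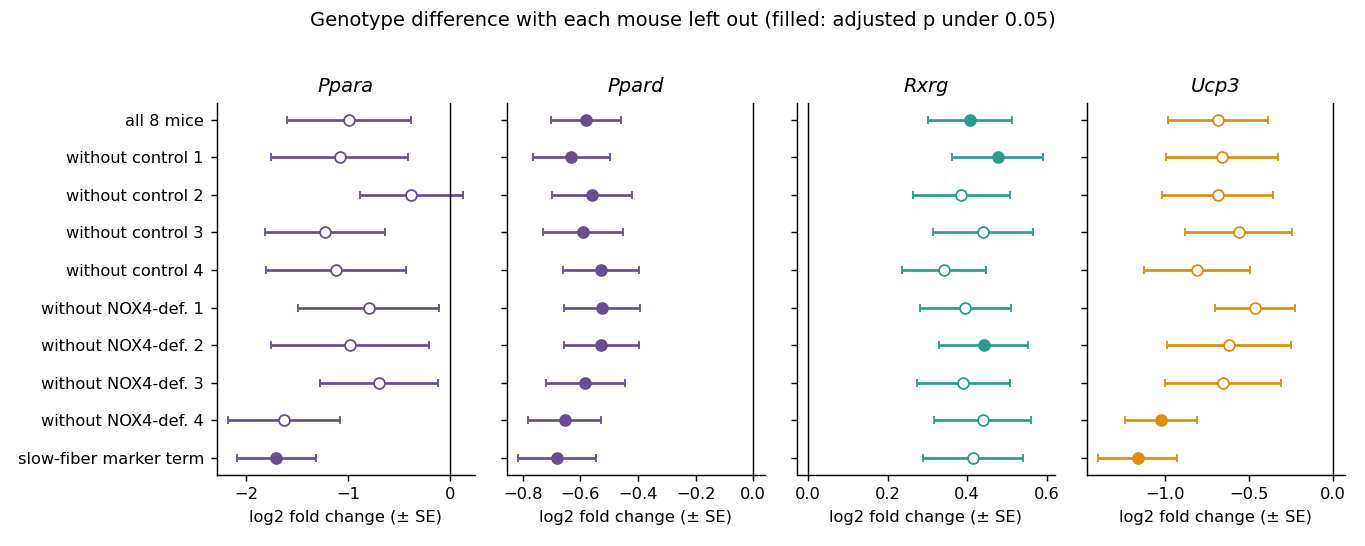
Log2 fold change of NOX4-deficient over control muscle (x axis, ± standard error, edgeR) for *Ppara*, *Ppard*, *Rxrg* and *Ucp3* with all 8 mice, without each mouse in turn and with the slow-fiber marker mean as a term; filled points have an adjusted p under 0.05. *Ppard* is filled throughout (-0.65 to -0.52 with a mouse left out), *Ucp3* only without NOX4-deficient 4 (-1.02) and with the marker term (-1.16).

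Markers of other cells moved with some of the members. Immune cell markers summed to 56.7 to 156 CPM in control and 33.0 to 94.2 CPM in NOX4-deficient libraries. Of 11 tested edgeR, DESeq2 and pydeseq2 called 0, with 2 at an unadjusted p under 0.05 in edgeR, and 10 had a negative log2 fold change. Their deviations correlated with those of *Ucp2* at 0.76 and of *Rxrg* at 0.85 over 8 libraries. With the immune marker mean as a term *Rxrg* was called higher beside *Ppard*. Adipocyte markers summed to 191 to 334 CPM in control and 182 to 240.3 CPM in NOX4-deficient libraries, and of 9 tested edgeR, DESeq2 and pydeseq2 called 0, with 1 at an unadjusted p under 0.05 in edgeR. *Adipoq* (adiponectin) had a log2 fold change of 0.87 (edgeR adjusted p = 0.401) and *Plin1*, the fat cell perilipin, of 1.38 (edgeR adjusted p = 0.229). With a library left out *Adipoq* ranged from 0.37 to 1.56 and *Plin1* from 0.73 to 2.10. The adipocyte list was split in direction, with 5 genes above 0 and 4 below. *Lipe* (-0.35), named after its values were seen, was the gene at an unadjusted p under 0.05 and lay below 0. Endothelial markers summed to 299 to 367 and 344 to 374 CPM, with *Vwf*, von Willebrand factor, called higher (0.74) as the only one of 9. Of 10 fast fiber markers edgeR called 0, with 1 at an unadjusted p under 0.05 and 1 called by DESeq2 and by pydeseq2, and their median log2 fold change was 0.12. Of 9 fibroblast and tendon markers edgeR called 0, with 3 at an unadjusted p under 0.05 and 1 called by DESeq2 and 0 by pydeseq2, and their median was 0.61. The part of these cells in the values of *Ucp2*, *Pparg* and *Rxrg* was not tested beyond the marker terms.

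Neither uncoupling-protein gene was called, and other genes that PPARs are known to regulate were therefore counted as well. Of 48 PPAR target genes in a hand-written list 44 were tested, 14 were called lower and 1 higher, and 32 had a log2 fold change below 0. The median of the list was -0.32, against 0.014 over all rows tested. Of all rows, 3.48% were called lower and 2.68% higher. The list was written with earlier results of these data known and is a description.

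Of the 12 genes of the list with the smallest p-values among those called, several act on fatty acids or their CoA esters. *Acot2*, a mitochondrial acyl-CoA thioesterase, fell from 74.9 ± 12.4 to 15.1 ± 2.84 CPM, by -2.31 on the log2 scale (edgeR adjusted p = 2.34e-05). *Acot1*, its cytosolic paralog, was lower by -3.34 on the log2 scale (edgeR adjusted p = 7.32e-05), and reads of these near-identical genes could have been split between them. *Acsl1*, which activates long-chain fatty acids, *Cd36*, their transporter, and *Mlycd*, which removes malonyl-CoA, had log2 fold changes of -0.65, -0.72 and -0.83, all called lower. The calls of *Acsl1* and *Cd36* were lost without control 2 (-0.53 and -0.63), NOX4-deficient 1 (-0.61 and -0.68) or NOX4-deficient 3 (-0.58 and -0.66), with edgeR adjusted p-values up to 0.0605. The thioesterase gene *Acot13* (0.061) and the transporter gene *Slc27a4* (-0.28), named after their values were seen, were not called. Catalase (*Cat*), which clears the hydrogen peroxide of peroxisomal oxidation, differed by -1.31 (edgeR adjusted p = 5.54e-05).

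Genes of lipid droplets in the list differed among themselves. *Plin5* and *Plin4*, perilipins of muscle and fat droplets, fell by 1.74 and 0.87 on the log2 scale, and *Pnpla2*, the triglyceride lipase ATGL, by 1.19. *Lpin1*, a phosphatidate phosphatase that also coactivates PPARα, fell by 1.44 and *Klf15*, a transcription factor of lipid and amino acid use, by 0.72. The call of *Plin4* was lost without NOX4-deficient 2 (-0.84, edgeR adjusted p = 0.0509), and that of *Klf15* without control 3 (-0.66) or control 4 (-0.63) and with slow markers as a term (-0.65), with edgeR adjusted p-values up to 0.0797. *Slc27a1* and *Acadl*, the remaining genes called lower, were outside the rule for named genes and are named because they complete the count. *Txnip*, which binds thioredoxin and limits glucose uptake, was the only gene called higher (log2 fold change 0.90, edgeR adjusted p = 0.00114). *Plin2*, a perilipin that is widely expressed, was at 24.1 ± 3.35 and 27.3 ± 3.50 CPM and was not called (0.18), nor were the droplet genes *Cidec* (0.32) and *G0s2* (0.0015), which were named after their values were seen.

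*Pdk4*, the kinase that shuts down pyruvate oxidation and a common readout of PPARδ in muscle, had 1663, 2068, 2221 and 1540 CPM in control and 280.3, 472, 886 and 942 CPM in NOX4-deficient libraries. The groups did not overlap, and *Pdk4* was called lower with a difference of -1.54 on the log2 scale (standard error 0.35, edgeR adjusted p = 0.0288). The call of *Pdk4* was lost in 6 of 19 alternatives, without control 2, 3 or 4 (-1.49, -1.43 and -1.62), without NOX4-deficient 2 (-1.41), without a filter on low counts (-1.54) and with immune markers as a term (-1.60), with edgeR adjusted p-values of 0.0585 to 0.122. Like *Ucp3*, *Pdk4* was lowest in NOX4-deficient 1 and, among the NOX4-deficient libraries, highest in NOX4-deficient 4. *Angptl4*, an inhibitor of lipoprotein lipase, was not called (-0.57, edgeR adjusted p = 0.217), and ranged from -0.73 to -0.29 with a library left out. *Cpt1b*, the muscle carnitine palmitoyltransferase, had 0.526 to 1.23 CPM, but 81.4% of its exon length is shared with the annotated gene *Gm44502* on the same strand, so that its count is uncertain.

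**Figure D5:**
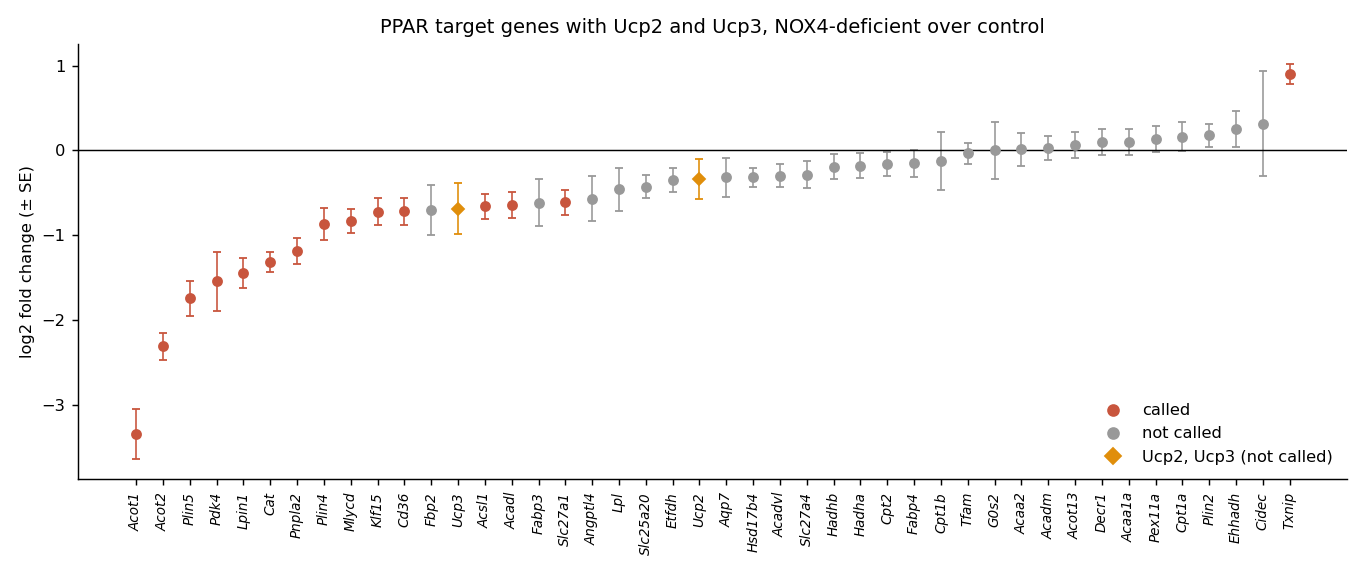
Log2 fold change (y axis, ± standard error, edgeR) of 42 of the 44 PPAR target genes tested and of *Ucp2* and *Ucp3* (x axis, in order of the fold change), with called genes in red, genes not called in grey and the uncoupling proteins as orange diamonds. *Acot1* (-3.34) and *Acot2* (-2.31) lie lowest, *Txnip* (0.90) highest, and *Ucp3* (-0.69) lies among called genes with a wider error.

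Genes that respond to fasting or belong to the clock also differed between the genotypes. Of 14 fasting-responsive genes tested, all had a negative log2 fold change and 10 were called lower, and their summed level was 4401 to 6687 CPM in control and 1236 to 2079 CPM in NOX4-deficient libraries. *Trim63*, the ubiquitin ligase MuRF1 (-2.18), *Cdkn1a*, the cell cycle inhibitor p21 (-2.03), and *Mt1*, a metallothionein (-1.83), were among them. The call of *Cdkn1a* was lost in 1 of 19 alternatives (edgeR adjusted p = 0.0718). The list shares 5 genes with the PPAR targets, and without these 7 of the remaining 9 were called lower. Without the shared genes the PPAR target list had 11 of 39 genes called lower, 1 higher and a median log2 fold change of -0.28. Among 15 clock genes, with a median log2 fold change of 0.17, 3 were called lower and 4 higher, with *Nfil3* at -1.72, *Npas2* at -2.32, *Per3* at 1.84 and *Hlf* at 1.46. The part of feeding or of the hour of collection in the values of *Ppard*, *Ucp3* and the target genes was not tested.

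Of 21 coactivators and corepressors of the receptors edgeR called 1, *Lpin1*, and DESeq2 and pydeseq2 each called 3. *Ppargc1a*, the coactivator PGC-1α that docks on PPARs, had 127, 161, 54.2 and 55.9 CPM in control and 27.7, 33.0, 29.5 and 61.4 CPM in NOX4-deficient libraries. NOX4-deficient 4 lay above controls 3 and 4, as it lay within the control range for *Ucp3*, and the log2 fold change of -1.39 was not called by edgeR (adjusted p = 0.0855) and was called by DESeq2 (adjusted p = 0.0401). *Ppargc1b*, which encodes the related PGC-1β, had a log2 fold change of 0.70 (edgeR adjusted p = 0.117) with groups that did not overlap, and the corepressor *Ncor1* of -0.13 (edgeR adjusted p = 0.688).

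RXRs also pair with other receptors. Of 9 tested genes for such partners, such as the liver X, thyroid hormone and retinoic acid receptors, edgeR, DESeq2 and pydeseq2 called 0. *Thra*, the gene of thyroid hormone receptor α, named after its values were seen, was higher in every NOX4-deficient than in any control library, by 0.36 on the log2 scale (edgeR adjusted p = 0.0355), below the minimum fold change as was *Rxrg*, and no other had an unadjusted p under 0.05. In a list of LXR and RXR target genes 1 of 11 tested was called, *Srebf1*, the transcription factor of fatty acid synthesis, which rose from 17.3 ± 2.14 to 33.9 ± 8.58 CPM, by 0.97 on the log2 scale (edgeR adjusted p = 0.00591). Of 8 tested genes of retinoid handling 2 were called lower, *Dhrs3* (-0.61), which reduces retinal, and *Cyp26b1* (-0.74), which breaks down retinoic acid. The call of *Cyp26b1* was lost in 11 of 19 alternatives (edgeR adjusted p up to 0.113), among them each library left out but NOX4-deficient 3 (-0.62 to -0.80). That of *Dhrs3* was lost in 5 of 19, without control 1, 2 or 4 (-0.52, -0.62 and -0.59) or NOX4-deficient 2 or 3 (-0.53 and -0.56), with edgeR adjusted p-values up to 0.0757. Among 6 tested mitochondrial carriers related to the uncoupling proteins *Slc25a5*, an adenine nucleotide translocase, was called lower (-0.58, edgeR adjusted p = 0.0111).

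By Pearson correlation of log2 CPM over the 8 libraries, the genes most like *Ppard* were *Mfap1b* (0.99), *Mapre2* (0.98) and *Ccdc117* (0.97). Their correlations of deviations from the genotype means were 0.96, 0.89 and 0.92. The genes most like *Ucp3* were *Vwa8* (0.98), *Mboat7* (0.97) and *Epc1* (0.97), at 0.97, 0.96 and 0.94 for the deviations. All were picked as the highest among 12725 rows over 8 libraries, so that values near 1 follow from the choice. The highest correlation was also 0.98 for *Pparg* and for *Ucp2*, which were not called. These likenesses are descriptions.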

How the data were processed

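Total RNA of homogenized gastrocnemius was poly(A)-selected, and unstranded libraries were sequenced as paired ends. Per the paper's methods the authors ran the nf-core RNA-seq pipeline, and the submitters' processing notes name STAR and GRCm39. The annotation release is not given in the sources used here. The deposited values are raw counts per gene in 1 column for each mouse, made by the authors without scaling, and 0 columns of values were left unmatched. Depth lay between 16350548 and 19804661 counts, and every pair of replicates differed beyond sampling noise (chi-square of 12.6 to 52.1 per degree of freedom).

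The analysis used edgeR 4.0.16 under R 4.3.3 (TMM, filterByExpr, robust glmQLFit, glmQLFTest, genotype as the only term). The thresholds are those of the study's methods, which used pydeseq2; here pydeseq2 0.5.4 and DESeq2 1.42.0 were alternatives. The other alternatives were other scaling, filters, thresholds, a fit that was not robust, a replicate block, each library left out and an exact permutation test. Marker means as terms were chosen once the data had been seen. The scripts were tested on simulated counts. Where p-values are given they set the difference between the genotypes against the spread of the 4 mice within each.

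The members, the gene lists and the tests were chosen with earlier results of these data known. Named were all members, *Nox4*, at most 12 called PPAR targets by smallest p with 6 fixed ones, at most 4 called genes of each other list, a few fixed coregulators and fat cell genes, and the 3 genes most like *Ppard* and *Ucp3*. Of the fixed genes, 2 are counted in their lists but not reported here by name. A repeated symbol stood for the row with most counts. Exon lengths and overlaps came from GENCODE M21 on GRCm38, and promoters from RefSeq on GRCm38.p6.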

Additional observations from a re-analysis of the deposited data

Results flagged for a closer look

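In 48 groups of 4 libraries (the members, the summed marker and gene lists and the total counts in each genotype) the gap of the highest or lowest library to its nearest neighbour was divided by the range of the group, and 6 exceeded Dixon's 95% critical value for 4 libraries. Chance gives about 1 in 20 groups. Of the 16 groups of members 1 was among them, *Pparg* in NOX4-deficient muscle, where NOX4-deficient 4 stood at 5.75 CPM above the others with a ratio of 0.839. The same library had the highest summed slow and oxidative fiber markers, 2848 CPM with a ratio of 0.899.

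Control libraries gave the other 4. Control 1 was highest in the summed LXR and RXR target genes (413 CPM, ratio 0.902) and in the adipocyte markers (334 CPM, ratio 0.843). Control 3 was highest in the fast fiber markers (150596 CPM, ratio 0.909). Control 4 was lowest in the carriers related to the uncoupling proteins (2649 CPM, ratio 0.885).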

How the results depend on the processing

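*Ppard* kept its direction and its side of the 0.05 threshold in all 20 alternatives run for it (adjusted p from 0.000652 to 0.0462, and 0.0286 in an exact permutation test). The count of members called, 1, was 2 without a minimum fold change and with immune markers as a term (*Ppard* and *Rxrg*). It was 3 with slow and oxidative markers as a term, 0 at an adjusted p under 0.01 in edgeR, and 1 to 2 with a library left out. In edgeR 5 of the 8 had an unadjusted p under 0.05, the largest that of *Ucp3*, which ranked 2806 of the 12725 rows tested. An unadjusted p under 0.05 was thus common among all rows. The genes called went from 784 to 252 at an adjusted p under 0.01 and to 499 to 712 with a library left out (499 without control 4), and the PPAR targets called from 15 to 8 and to 10 to 15. The log2 fold change of *Pparg* reversed without NOX4-deficient 4 (-0.074) and with slow markers as a term (-0.15), and that of *Cpt1b* without NOX4-deficient 3 (0.047; -0.38 to 0.047 with a library left out). With slow markers as a term *Ppara* (-1.70) and *Ucp3* (-1.16) passed the threshold and *Rxrg* (0.41) did not, nor did *Rxrg* with adipocyte markers (0.39). With a library left out *Rxrg* ranged from 0.34 to 0.48, *Ucp3* from -1.02 to -0.47 and *Pparg* from -0.074 to 0.40. By an exact two-sided permutation test of log2 CPM *Rxra* (0.26) and *Rxrb* (-0.32) reached 0.0286, the smallest p for 4 against 4. Groups that do not overlap always reach this value, and 16.2% of all rows tested had such groups, so the test adds nothing to that separation. The cause of these shifts was not tested. Same-numbered libraries deviated together at r = 0.22, 0.15, 0.04 and 0.04, so that the numbers were not taken as pairs. A replicate block called 933 genes, 1 member (*Ppard*, -0.58) and 15 targets, with *Ucp3* at -0.79. At 1.42 to 16.3 CPM, *Ppara*, *Pparg* and *Ucp2* rest on 27 to 316 counts a library, which limits their precision.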
